A study of Homo sapiens with 6 samples.

Results

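Most nucleosomes are built from core histones whose genes are switched on during S phase. The 8 genes described here are classed as replacement variants, which can be made and placed into chromatin outside DNA replication: H2AZ1, H2AZ2, H2AX, H2AJ, MACROH2A1, MACROH2A2, H3-3A and H3-3B. The class is not uniform, since the message of H2AX can also end like that of an S phase histone. They were chosen by name among the replication-independent core histone variant genes, and no rule on their values was used. Earlier results of these data were known at that point, and other variant genes such as CENPA are described apart. The members are 8 of the 28395 genes in the deposited tables. All 8 passed the filter on low counts. RNA was sequenced from A375, an established human melanoma cell line with an activating BRAF mutation, in 6 libraries of 3 groups with 2 libraries each. The first group had received palbociclib, an inhibitor of the cell cycle kinases CDK4 and CDK6, at 1 µM for 72 h. The second had received GSK3326595, which inhibits PRMT5, an enzyme that methylates arginine, at 500 nM for 72 h. The third had received the solvent DMSO at 0.01%. All groups are this 1 cell line in RPMI medium, and no label names an altered gene. No label says that the 2 libraries of a group came from separate cultures, so the p-values reflect the scatter of these libraries alone, and that scatter may be technical.

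Replacement variants give a nucleosome properties that the S phase histones do not. H2A.Z is placed at promoters by the SRCAP and EP400 remodelers, H2A.X carries the serine that is phosphorylated at DNA breaks, macroH2A carries a large extra domain and is linked to silent chromatin, and H3.3 is placed by HIRA at active genes and by DAXX and ATRX at repeats. The messages of most of these genes end in a poly(A) tail, whereas those of S phase histones end in a stem-loop. Ribosomal RNA was depleted before these libraries were made, so both kinds of message can be present in the counts.

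The total count per library ran from 16589153 to 20842099, and 2 libraries of the same treatment were further apart than counting error allows: the chi-square statistic over its degrees of freedom was 5.12 between the palbociclib libraries, 9.90 between the GSK3326595 libraries and 7.76 between the DMSO libraries. The cell line label was checked with 16 melanoma genes, whose summed level was 2086 to 2164 CPM (read counts scaled to 1e+06 per library) in palbociclib libraries, 2150 to 2356 CPM in GSK3326595 libraries and 2477 to 2486 CPM in DMSO libraries. SOX10 and MITF, which define the lineage, were present in every library, while the pigment enzyme genes TYR, TYRP1 and DCT were under 1 CPM in every library. In both libraries of a group, 7 of 9 blood genes were under 1 CPM in each group. So were, of 8 epithelial genes, 3 in the palbociclib group, where KRT5 had 0.508 and 1.10 CPM, and 4 in each of the other groups, and of 8 stromal genes 2 in the palbociclib group, 2 in the GSK3326595 group and 4 in the DMSO group. Other genes of these lists were not low. KRT18 had 465 to 598 CPM and KRT8 124 to 180 CPM across the libraries, and the blood list gene CD68 had 63.1 to 89.1 CPM. The pigment cell genes PMEL and MLANA were at 2.45 CPM or less. The largest parts of the melanoma sum were CSPG4, at 897 and 822 CPM in DMSO libraries, and AXL, at 835 and 867 CPM. The check of the label is therefore a loose one. The cells form a bulk sample, so fewer cells making a message and less message per cell cannot be told apart.

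The genes lie on 8 chromosomes, given here in GRCh38 coordinates from RefSeq. H2AZ1 (gene ID 3015, formerly H2AFZ) lies at chr4:99948088-99950275 and H2AZ2 (94239, H2AFV) at chr7:44826889-44848126. H2AX (3014, H2AFX) lies at chr11:119093874-119095465 and H2AJ (55766, H2AFJ) at chr12:14774405-14778002. MACROH2A1 (9555, H2AFY) lies at chr5:135334381-135399887 and MACROH2A2 (55506, H2AFY2) at chr10:70052846-70112282. H3-3A (3020, H3F3A) lies at chr1:226061831-226072019 and H3-3B (3021, H3F3B) at chr17:75776434-75779779.

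The promoters of the 4 members that fell with both inhibitors, and of H2AJ, which was called in no comparison, are shown to set the sequences beside the values that follow. Each is the 250 bases before the first annotated start in RefSeq, written 5′ to 3′ along the gene, with matches to the CCAAT box (CCAAT or ATTGG) and to the cell cycle genes homology region, CHR (TTTGAA, its reverse complement TTCAAA, or the variant form TTCGAA), in capitals. They lie at chr4:99950276-99950525 on the minus strand, chr7:44848088-44848337 on the minus strand, chr11:119095466-119095715 on the minus strand, chr17:75779780-75780029 on the minus strand and chr12:14774155-14774404 on the plus strand.
H2AZ1: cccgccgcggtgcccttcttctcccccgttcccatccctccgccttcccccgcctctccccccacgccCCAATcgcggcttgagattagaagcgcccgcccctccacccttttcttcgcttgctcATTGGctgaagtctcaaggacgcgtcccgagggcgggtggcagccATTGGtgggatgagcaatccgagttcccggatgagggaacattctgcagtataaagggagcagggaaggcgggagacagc
H2AZ2: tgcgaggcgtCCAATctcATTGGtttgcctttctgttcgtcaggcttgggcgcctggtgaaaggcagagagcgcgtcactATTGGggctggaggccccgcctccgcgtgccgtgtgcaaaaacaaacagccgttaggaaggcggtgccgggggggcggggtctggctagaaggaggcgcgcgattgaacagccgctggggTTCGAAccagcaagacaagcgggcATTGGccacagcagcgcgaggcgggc
H2AX: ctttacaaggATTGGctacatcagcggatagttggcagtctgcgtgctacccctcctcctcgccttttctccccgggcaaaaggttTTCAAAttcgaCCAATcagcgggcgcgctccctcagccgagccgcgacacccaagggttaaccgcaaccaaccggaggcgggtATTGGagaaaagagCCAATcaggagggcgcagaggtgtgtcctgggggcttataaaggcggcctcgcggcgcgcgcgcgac
H3-3B: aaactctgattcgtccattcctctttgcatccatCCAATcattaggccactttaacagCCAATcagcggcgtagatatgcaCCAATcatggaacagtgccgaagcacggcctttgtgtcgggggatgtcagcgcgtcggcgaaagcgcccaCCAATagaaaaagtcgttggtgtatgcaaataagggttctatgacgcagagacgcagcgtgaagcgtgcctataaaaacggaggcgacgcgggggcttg
H2AJ: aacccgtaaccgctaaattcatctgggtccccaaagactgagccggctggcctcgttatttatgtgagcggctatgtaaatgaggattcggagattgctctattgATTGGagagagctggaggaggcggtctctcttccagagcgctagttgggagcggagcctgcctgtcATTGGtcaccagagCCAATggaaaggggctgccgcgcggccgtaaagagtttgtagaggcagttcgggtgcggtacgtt
H2AZ1 held 3 CCAAT boxes in these bases, H2AZ2 4, H2AX 4, H3-3B 4 and H2AJ 3. Of the members not printed, MACROH2A2 held 0, and MACROH2A1 held 0 at its first start and 2 at its second. H3-3A held 1, 1, 0 and 1 at its 4 starts. Among 27305 promoters of 300 bases (250 before and 50 after the start), 35.7% held at least 1. A CHR match was found in H2AZ2, 50 bases before the start, in H2AX, 164 bases before it, and in H2AZ1 at base 5 of the transcript. Of all promoters 16.6% held one, and none was found in the windows of the other 5 members. E2F letters on either strand (the form TTCCCGC, the form TTCGCGC, the form TTGCCGC and the form TTGGCGC) were found in MACROH2A2, 14 bases into the transcript, and at the second of 4 annotated starts of H3-3A, against 13.1% of all promoters. The shares over all promoters count the first listed start of each gene only, whereas every listed start of a member was searched. A match is a run of letters and not a measured binding site.

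The CHR match of H2AZ1 lies past the stretch printed above and is shown with its flanks, in capitals, from chr4:99950254-99950283 on the minus strand.
H2AZ1 start: gagacagcgcagTTTGAAtcgcggtgcgac

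H2AX is the member whose message can end like that of an S phase histone. A histone stem-loop was found 50 bases after its stop codon and in no other member; 33 of 19669 protein-coding genes held one, which is 0.168%. Of 31 S phase histone genes annotated with at least 60 bases after the stop codon, 28 held one. The stem-loop of H2AX is shown beside that of H2AC8, an S phase H2A gene whose loop lies at the same distance, with the loop in capitals.
H2AX: ccacaaaGGCCCTTTTAAGGGCCaccaccg
H2AC8: aaccaaaGGCTCTTTTCAGAGCCacccacc
The counts per gene do not separate messages that end at the loop from those that run on to a poly(A) tail.

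Of the 8 variant genes 5 fell with palbociclib, 4 fell with GSK3326595, and none rose with either. H2AZ1, H2AZ2, H2AX and H3-3B fell with both inhibitors, MACROH2A2 fell with palbociclib, and H2AJ, MACROH2A1 and H3-3A were called in neither comparison. In palbociclib against DMSO 20.2% of the 16381 genes tested were called lower and 19.3% higher, at an edgeR adjusted p under 0.05. In GSK3326595 against DMSO 10.2% were called lower and 8.58% higher. The median log2 fold change over the 8 members was -0.67 with palbociclib and -0.31 with GSK3326595, beside -0.02 and -0.001 over all genes tested. At an unadjusted p under 0.05, 0 members were higher with palbociclib and 1, H2AJ, with GSK3326595, and DESeq2 and limma-voom called 0 members higher in either comparison. Both comparisons share the DMSO libraries.

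**Figure D1:**
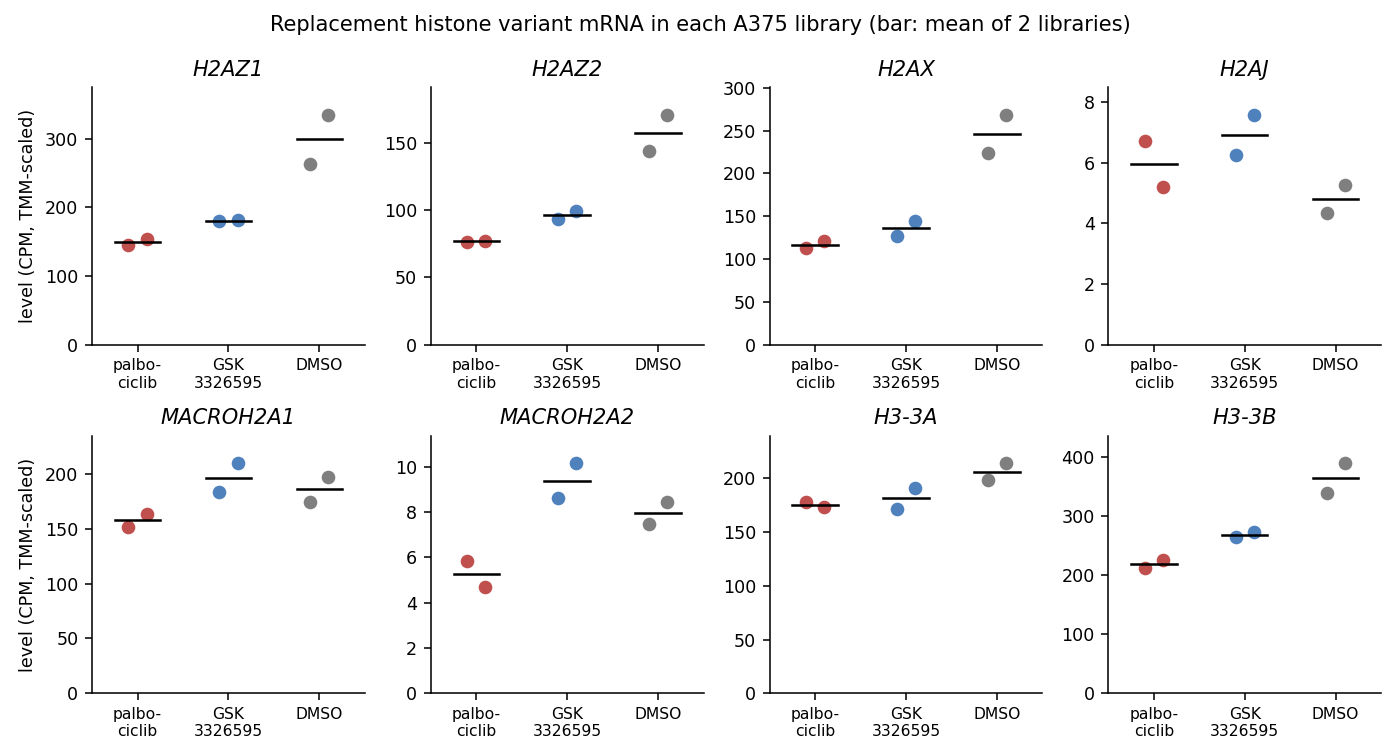
Level of each of the 8 replacement variant genes in CPM scaled by TMM (y axis, from 0) in each library (points), by treatment (x axis); bars are means of 2 libraries. For H2AZ1, H2AZ2, H2AX, H3-3B and, narrowly, H3-3A both libraries of either inhibitor lie below both DMSO libraries. How many of all genes separate in this way was not counted. H2AJ and MACROH2A2 stay near or below 10 CPM.

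Levels of different genes can be set side by side only per length, and their order depended on the length used. Per kb of 1 annotated transcript, H3-3A and H2AZ1 were highest after palbociclib, at 161 ± 2.82 and 152 ± 6.45 CPM per kb (SD, n = 2), and these ranges of 1 SD overlapped. H2AZ2 followed at 102 CPM per kb, H3-3B at 80.8, H2AX at 72.2, MACROH2A1 at 56.7, H2AJ at 9.23 and MACROH2A2 at 2.66. On the same scale H2AZ1 was highest after GSK3326595, at 185 ± 1.74 CPM per kb, and H3-3A followed at 167 ± 12.7, then H2AZ2 at 128, H3-3B at 99.5, H2AX at 84.3, MACROH2A1 at 70.6, H2AJ at 10.7 and MACROH2A2 at 4.74. With DMSO, H2AZ1 was highest at 305 ± 51.8 CPM per kb. H2AZ2 at 209 ± 25.5 and H3-3A at 189 ± 9.94 had ranges of 1 SD that overlapped, as had H2AX at 153 ± 19.4 and H3-3B at 135 ± 13.1. MACROH2A1 stood at 66.7, H2AJ at 7.46 and MACROH2A2 at 4.02 CPM per kb.

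Other lengths gave another order among the higher genes. Per kb of coding sequence H3-3B was highest in each group, at 532 CPM per kb after palbociclib, 655 after GSK3326595 and 887 with DMSO. H2AZ1 stood at 385 CPM per kb after palbociclib, 467 after GSK3326595 and 772 with DMSO on that scale. The scale sets reads of the whole gene over coding bases alone, which raises genes with long untranslated parts. Coding sequence is 411 of 2705 transcript bases for H3-3B and 387 of 979 for H2AZ1. Per kb of the longest coding transcript, which is 1863 bases in place of 1088 for H3-3A and 3804 in place of 752 for H2AZ2, H3-3A stood at 94.2 CPM per kb after palbociclib and H2AZ2 at 20.2. On all 3 lengths and in every group MACROH2A2 was lowest and H2AJ next.

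Both genes of H2A.Z, the promoter variant, fell with both inhibitors. H2AZ1, the gene of H2A.Z.1, had 144 and 153 CPM in palbociclib libraries and 179.5 and 182 CPM in GSK3326595 libraries, against 263 and 335 CPM in DMSO libraries. H2AZ2, the gene of H2A.Z.2, had 76.4 and 77.1 CPM in palbociclib libraries and 93.6 and 99.0 CPM in GSK3326595 libraries, against 144 and 171 CPM in DMSO libraries. Every inhibitor library was below every DMSO library for both genes, and every palbociclib library was below every GSK3326595 library. With palbociclib the log2 fold change was -1.004 ± 0.109 (SE) for H2AZ1 (edgeR adjusted p = 2.35e-05) and -1.03 ± 0.09 for H2AZ2 (edgeR adjusted p = 5.97e-06). With GSK3326595 it was -0.73 ± 0.11 for H2AZ1 (edgeR adjusted p = 0.000853) and -0.71 ± 0.09 for H2AZ2 (edgeR adjusted p = 0.000403). All 4 of these calls held under each of 15 alternative settings. The coding sequences of the pair are 80.4% identical. Of the 50-base windows of its transcript, H2AZ1 shares 7.85% and H2AZ2 14.8% with transcripts of other genes, mainly pseudogenes, and how reads with several matches were counted is not given in the sources used here.

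H2AX, whose product marks DNA breaks when phosphorylated, also fell with both inhibitors. It had 112 and 121 CPM in palbociclib libraries and 127 and 145 CPM in GSK3326595 libraries, against 224 and 268 CPM in DMSO libraries. All inhibitor libraries were below both DMSO libraries. The log2 fold change was -1.08 ± 0.10 with palbociclib (edgeR adjusted p = 9.53e-06) and -0.86 ± 0.10 with GSK3326595 (edgeR adjusted p = 0.000219), and both calls held under all 15 alternative settings. The whole span of H2AX, 1592 bases, lies within the RefSeq span of DPAGT1, a gene of protein glycosylation. DPAGT1 had 1120 and 1125 counts in palbociclib libraries, 911 and 896 in GSK3326595 libraries and 975 and 1119 in DMSO libraries. H2AX itself had 2213 and 2512 counts in palbociclib libraries, 2185 and 2487 in GSK3326595 libraries and 4018 and 5156 in DMSO libraries. How reads of this overlap were assigned was not tested, and the strand setting of the counting is not given in the sources used here.

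H2AJ, an H2A variant whose protein gathers in senescent human fibroblasts, was low and was called in no comparison. It had 6.70 and 5.19 CPM in palbociclib libraries and 6.24 and 7.57 CPM in GSK3326595 libraries, against 4.35 and 5.26 CPM in DMSO libraries. Its palbociclib and DMSO libraries overlapped, while both GSK3326595 libraries were above both DMSO libraries. The log2 fold change was 0.30 ± 0.21 with palbociclib (edgeR adjusted p = 0.275) and 0.52 ± 0.21 with GSK3326595 (edgeR adjusted p = 0.109). H2AJ had 78 to 132 counts per library, and 1 of 15 alternative settings called it higher with GSK3326595.

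The macroH2A genes, whose proteins carry a macrodomain, lay far apart in level, and only MACROH2A2 with palbociclib was called against DMSO. MACROH2A1 had 152 and 164 CPM in palbociclib libraries and 184 and 209.9 CPM in GSK3326595 libraries, against 174 and 198 CPM in DMSO libraries. The palbociclib libraries were below both DMSO libraries, and the GSK3326595 and DMSO libraries overlapped. Its log2 fold change was -0.24 ± 0.10 with palbociclib (edgeR adjusted p = 0.0737), and 4 of 15 alternative settings called it lower, one of them the fit without GSK3326595 replicate 2 (edgeR adjusted p = 0.0415). With GSK3326595 it was 0.08 ± 0.10 (edgeR adjusted p = 0.610), and -0.032 without DMSO replicate 1 and -0.02 without GSK3326595 replicate 2. MACROH2A1 overlaps PITX1-AS1 over 10300 bases, an antisense-named RNA with 65 to 111 counts per library. Of the 50-base windows of its transcript, MACROH2A1 shares 23.2% with annotated transcripts of 2 other genes on either strand, most with C5orf66.

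MACROH2A2, the rarer paralog, had 5.84 and 4.71 CPM in palbociclib libraries and 8.63 and 10.1 CPM in GSK3326595 libraries, against 7.47 and 8.43 CPM in DMSO libraries. The palbociclib libraries were lowest and the GSK3326595 libraries highest, with no overlap between groups. Between DMSO and GSK3326595 the gap was narrow, at 8.43 CPM from 162 counts and 8.63 CPM from 148 counts. How many of all genes separate in this way was not counted. It fell with palbociclib by 0.59 ± 0.19 on the log2 scale (edgeR adjusted p = 0.0238). The gene had 98 to 174 counts per library, and the call was lost without DMSO replicate 2 (edgeR adjusted p = 0.147), without palbociclib replicate 2 (edgeR adjusted p = 0.201) and with DESeq2 (adjusted p = 0.0613). With GSK3326595 its log2 fold change was 0.24 ± 0.18 (edgeR adjusted p = 0.391).

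Of the pair of genes that encode the same H3.3 protein, H3-3B fell with both inhibitors and H3-3A was called with neither. H3-3B had 212 and 225 CPM in palbociclib libraries and 264 and 274 CPM in GSK3326595 libraries, against 339.6 and 389.8 CPM in DMSO libraries. H3-3A had 178 and 173 CPM in palbociclib libraries and 172 and 191 CPM in GSK3326595 libraries, against 199 and 214 CPM in DMSO libraries. For both genes the inhibitor libraries were all below the DMSO libraries, by a wide margin for H3-3B and a narrow one for H3-3A. H3-3B fell by 0.74 ± 0.09 on the log2 scale with palbociclib (edgeR adjusted p = 7.92e-05), under all 15 alternative settings. With GSK3326595 it fell by 0.44 ± 0.09 (edgeR adjusted p = 0.00761), and that call was lost without DMSO replicate 2 (edgeR adjusted p = 0.0767).

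H3-3A stood at the edge of the threshold with palbociclib. Its log2 fold change was -0.23 ± 0.09 (edgeR adjusted p = 0.0519), and 6 of 15 alternative settings called it lower, one of them the fit without GSK3326595 replicate 2 (edgeR adjusted p = 0.0346). With GSK3326595 it was -0.18 ± 0.09 (edgeR adjusted p = 0.170), and 1 of 15 alternative settings called it lower. H3-3A shares 34.8% of the 50-base windows of its transcript with 12 other genes, against 8.28% for H3-3B. The pseudogene H3P6, which holds the most of them, had 594 and 566 counts in palbociclib libraries, 518 and 524 in GSK3326595 libraries and 589 and 689 in DMSO libraries. H3-3A had 3496 and 3606 counts in palbociclib libraries, 2948 and 3284 in GSK3326595 libraries and 3559 and 4107 in DMSO libraries. With the counts of H3P6 added, its edgeR adjusted p with palbociclib was 0.0489.

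**Figure D2:**
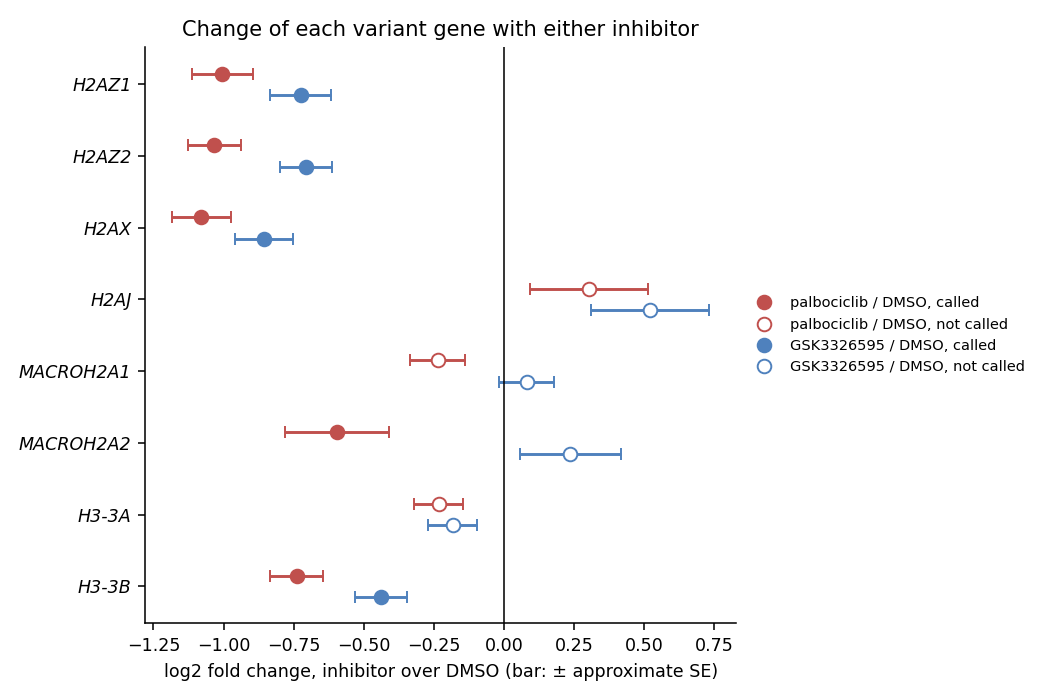
Log2 fold change (x axis) of each variant gene (y axis) for palbociclib over DMSO and GSK3326595 over DMSO, with bars of 1 approximate SE; filled points were called at an edgeR adjusted p under 0.05. H2AZ1, H2AZ2 and H2AX lie between -1.08 and -0.71, H3-3B at -0.74 and -0.44, and H2AJ on the positive side with neither point called.

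Set against each other, palbociclib left 4 members lower than GSK3326595 did and none higher. In this comparison 18.2% of all genes tested were called lower and 16.6% higher. At an unadjusted p under 0.05, 0 members were higher by edgeR, and DESeq2 and limma-voom called 0 higher. The log2 fold change of palbociclib over GSK3326595 was -0.33 ± 0.09 for H2AZ2 (edgeR adjusted p = 0.0186) and -0.30 ± 0.09 for H3-3B (edgeR adjusted p = 0.0267). It was -0.32 ± 0.10 for MACROH2A1 (edgeR adjusted p = 0.0249) and -0.83 ± 0.19 for MACROH2A2 (edgeR adjusted p = 0.00453). The difference did not pass for H2AZ1, at -0.28 ± 0.11 (edgeR adjusted p = 0.0655), for H2AX, at -0.22 ± 0.10 (edgeR adjusted p = 0.119), for H2AJ, at -0.22 ± 0.21 (edgeR adjusted p = 0.449), or for H3-3A, at -0.05 ± 0.09 (edgeR adjusted p = 0.700). Of these, H2AZ1 passed without DMSO replicate 1 (edgeR adjusted p = 0.0466) or DMSO replicate 2 (edgeR adjusted p = 0.0438). The 4 calls did not all hold when 1 library was left out: 1 member was called without palbociclib replicate 1, 0 without palbociclib replicate 2, 1 without GSK3326595 replicate 2, and H3-3B was not called without GSK3326595 replicate 1 (edgeR adjusted p = 0.0535). In these fits with fewer libraries the log2 fold change ran from -0.36 to -0.28 for H2AZ2, from -0.34 to -0.25 for H3-3B, from -0.40 to -0.22 for MACROH2A1 and from -0.99 to -0.68 for MACROH2A2, so all 4 kept their sign.

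The S phase histone genes are the class that the variants replace. Of 63 replication-dependent core histone genes 56 could be tested. Of these 55 fell with palbociclib and 51 with GSK3326595, beside 20.2% and 10.2% of all genes tested. None rose, and at an unadjusted p under 0.05 as well as by DESeq2 and limma-voom the count of higher genes was 0 in both comparisons. The median log2 fold change of the 56 genes was -2.27 with palbociclib and -1.09 with GSK3326595. H4C6, which encodes H4, had the smallest p with palbociclib, at 27.6 ± 0.762 CPM against 198 ± 27.4 CPM with DMSO (SD, n = 2 each). H3C1, which encodes H3.1, had it with GSK3326595, at 25.1 ± 2.46 CPM against 78.1 ± 8.34 CPM with DMSO. With palbociclib, 52 of the 56 lay below the log2 fold change of H2AX, 53 below that of H2AZ2 and all 56 below that of H3-3A. With GSK3326595, 46 of the 56 lay below H2AX, 49 below H2AZ2 and 55 below H3-3A. Between the inhibitors 48 were lower and 0 higher with palbociclib, beside 18.2% and 16.6% of all genes tested. The median of the 56 was -1.04, and H4C6 had the smallest p at -1.52 ± 0.11. At an unadjusted p under 0.05 edgeR had 0 higher, as had DESeq2 and limma-voom, and 1 was higher without palbociclib replicate 1. Counts of single S phase genes are uncertain, because many are near-identical copies of each other.

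Within a library, reads of replacement genes made up a larger part of the H3 and H2A reads after either inhibitor. The summed level of H3-3A and H3-3B was 389 and 398 CPM in palbociclib libraries and 436 and 465 CPM in GSK3326595 libraries, against 538 and 603 CPM in DMSO libraries. The summed level of the 13 H3C genes was 289 and 347 CPM in palbociclib libraries and 669.5 and 803 CPM in GSK3326595 libraries, against 1508 and 1848 CPM in DMSO libraries. The ratio of the first sum to the second was 1.35 and 1.15 in palbociclib libraries and 0.651 and 0.579 in GSK3326595 libraries, against 0.356 and 0.326 in DMSO libraries. No groups overlapped, and both sums were lower with either inhibitor. On the log2 scale the ratio differed from DMSO by 1.87 with palbociclib and by 0.85 with GSK3326595. An exact two-sided permutation test gave p = 0.333 for each, the smallest value that 2 libraries against 2 allow.

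The H2A side had the same order. The 6 replacement H2A genes over the 17 H2AC genes gave a ratio of 1.23 and 1.07 in palbociclib libraries and 0.816 and 0.744 in GSK3326595 libraries, against 0.510 and 0.525 in DMSO libraries. The log2 difference from DMSO was 1.15 with palbociclib and 0.59 with GSK3326595 (exact two-sided permutation p = 0.333 each). These are ratios of reads and not of molecules, since the replacement transcripts are longer than most S phase ones.

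**Figure D3:**
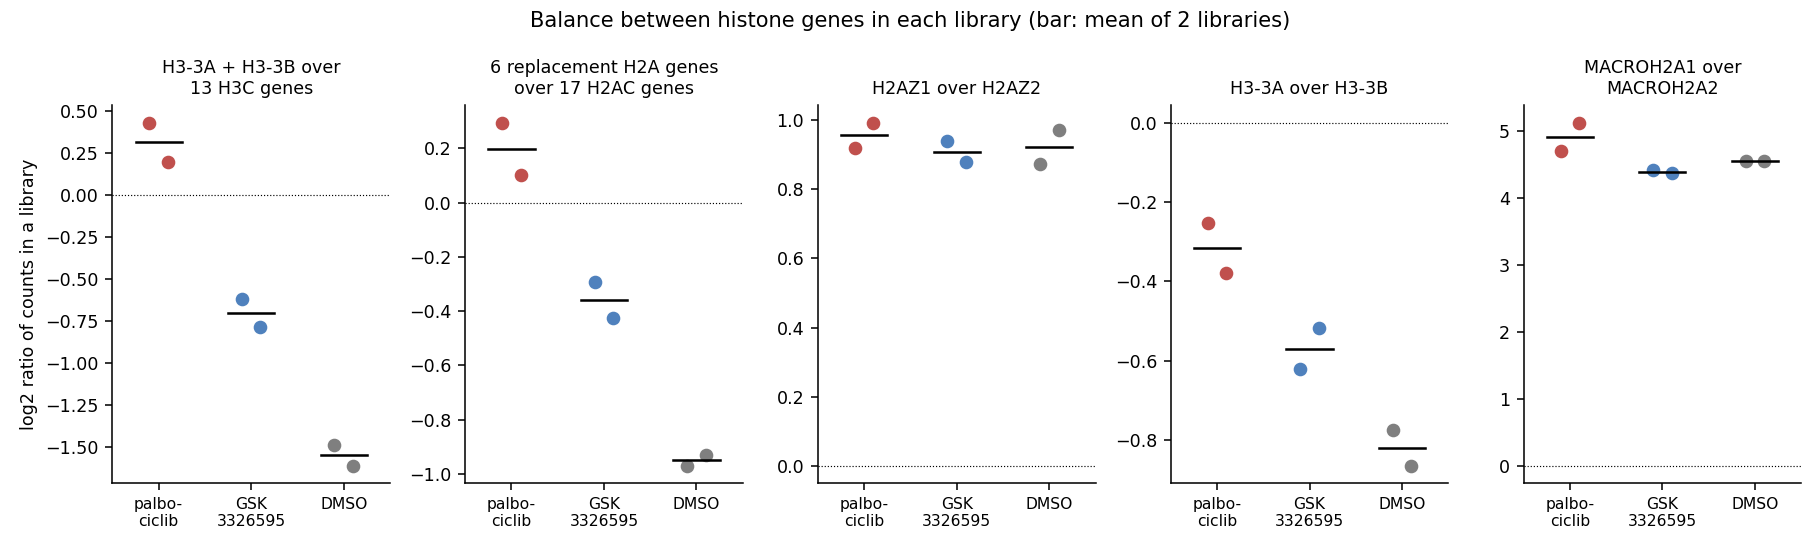
Log2 ratio of counts (y axis, a separate scale per panel) between histone genes in each library (points) by treatment (x axis); bars are means of 2 libraries. The ratios of replacement to replication-dependent genes are highest in palbociclib libraries, next in GSK3326595 libraries and lowest in DMSO libraries, while H2AZ1 over H2AZ2 overlaps between all groups.

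The balance within each pair of paralogs differed from pair to pair. H2AZ1 over H2AZ2 gave 1.89 and 1.99 in palbociclib libraries and 1.92 and 1.84 in GSK3326595 libraries, against 1.83 and 1.96 in DMSO libraries. These groups overlapped, and the mean log2 ratio differed from DMSO by 0.03 with palbociclib (exact permutation p = 0.667) and by -0.01 with GSK3326595 (exact permutation p = 1). H3-3A over H3-3B gave 0.839 and 0.769 in palbociclib libraries and 0.650 and 0.698 in GSK3326595 libraries, against 0.584 and 0.549 in DMSO libraries. Here no groups overlapped, and the log2 difference from DMSO was 0.50 with palbociclib and 0.25 with GSK3326595 (exact permutation p = 0.333 each). MACROH2A1 over MACROH2A2 gave 26.0 and 34.8 in palbociclib libraries and 21.3 and 20.7 in GSK3326595 libraries, against 23.3 and 23.5 in DMSO libraries. The palbociclib ratios lay above and the GSK3326595 ratios below those of DMSO, by log2 differences of 0.36 with palbociclib and -0.16 with GSK3326595 (exact permutation p = 0.333 each). With 1 library left out, the difference ran from 0.15 to 0.57 with palbociclib and from -0.18 to -0.13 with GSK3326595. MACROH2A2 had only 98 to 174 counts per library, so this ratio is uncertain.

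Genes that place, remove or read the variants had medians nearer to 0 than the variants themselves. Of 27 such genes, all tested, 12 fell and 1 rose with palbociclib, beside 20.2% and 19.3% of all genes tested. Their median log2 fold change was -0.23. With GSK3326595 5 fell and 2 rose, beside 10.2% and 8.58% of all genes tested, and the median was -0.06. The 5 became 3 without DMSO replicate 1 or GSK3326595 replicate 1 and 2 without DMSO replicate 2. The 2 that rose with GSK3326595 became 1 with DESeq2 or limma-voom. They became 0 without any 1 of DMSO replicate 1, DMSO replicate 2, palbociclib replicate 1, palbociclib replicate 2 and GSK3326595 replicate 2. DEK, a chromatin protein that acts as an H3.3 chaperone, had 57.2 ± 0.0910 CPM with palbociclib and 117 ± 2.31 CPM with GSK3326595, against 186 ± 17.6 CPM with DMSO (SD, n = 2 each). Its log2 fold change was -1.70 ± 0.09 with palbociclib (edgeR adjusted p = 1.49e-07) and -0.66 ± 0.09 with GSK3326595 (edgeR adjusted p = 0.000358). ANP32E, which removes H2A.Z from chromatin, had 74.6 ± 1.62 CPM with palbociclib and 118 ± 4.21 CPM with GSK3326595, against 218 ± 24.8 CPM with DMSO. Its log2 fold change was -1.54 ± 0.09 with palbociclib (edgeR adjusted p = 2.96e-07) and -0.88 ± 0.09 with GSK3326595 (edgeR adjusted p = 8.37e-05).

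ZNHIT1, a subunit of the SRCAP complex that places H2A.Z, went the other way. It had 85.6 ± 0.862 CPM with palbociclib and 70.9 ± 9.32 CPM with GSK3326595, against 55.1 ± 2.87 CPM with DMSO (SD, n = 2 each). It rose by 0.64 ± 0.10 on the log2 scale with palbociclib (edgeR adjusted p = 0.000384) and by 0.36 ± 0.10 with GSK3326595 (edgeR adjusted p = 0.0271). The call with GSK3326595 was lost in the same 5 fits that leave out a library, with edgeR adjusted p between 0.0509 and 0.203. The other gene that rose with GSK3326595, named after its values were seen, was RUVBL1, an ATPase shared by the SRCAP, EP400 and INO80 complexes. RUVBL1 rose by 0.31 ± 0.10 on the log2 scale with GSK3326595 (edgeR adjusted p = 0.0471), while it fell by 0.39 ± 0.10 with palbociclib (edgeR adjusted p = 0.00806). BRD2, a reader of acetylated H4 found at H2A.Z nucleosomes, was not called, with a log2 fold change of -0.09 ± 0.08 with palbociclib and -0.20 ± 0.08 with GSK3326595. Between the inhibitors 13 of the 27 genes were lower and 1 higher with palbociclib, beside 18.2% and 16.6% of all genes tested. DEK had the smallest p among the lower ones, at a log2 fold change of -1.04 ± 0.09, and the higher one was PWWP2B, a relative of the H2A.Z reader PWWP2A, at 0.61 ± 0.13. Without palbociclib replicate 1 the lower genes numbered 7, and without DMSO replicate 1, DMSO replicate 2 or GSK3326595 replicate 2 the higher ones numbered 2.

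The main carriers of H3.3 were singled out after their values were seen. HIRA fell with palbociclib by 0.30 ± 0.09 on the log2 scale (edgeR adjusted p = 0.0236) and was at 0.02 ± 0.09 with GSK3326595 (edgeR adjusted p = 0.892). DAXX was at -0.11 ± 0.11 with palbociclib and 0.11 ± 0.11 with GSK3326595, and ATRX at 0.09 ± 0.08 and -0.13 ± 0.08, none of them called.

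A further list holds genes that supply S phase histones to replication forks or process their messages. Of 21 such genes 17 fell and 0 rose with palbociclib, beside 20.2% and 19.3% of all genes tested. Their median log2 fold change was -0.78. With GSK3326595 10 fell and 0 rose, beside 10.2% and 8.58% of all genes tested, and the median was -0.25. At an unadjusted p under 0.05 edgeR had 1 gene higher with palbociclib and 0 with GSK3326595, and DESeq2 and limma-voom called 0 higher in both. MMS22L, a partner of TONSL at damaged forks, had 15.3 ± 0.235 CPM with palbociclib and 28.2 ± 0.359 CPM with GSK3326595, against 54.1 ± 0.904 CPM with DMSO (SD, n = 2 each). ASF1B, an H3-H4 chaperone of dividing cells, had 36.1 ± 3.81 CPM with palbociclib and 38.7 ± 1.05 CPM with GSK3326595, against 96.3 ± 5.93 CPM with DMSO. All 4 of these differences were called. Without DMSO replicate 2, the count of lower genes with GSK3326595 was 6. The count of higher genes with palbociclib was 1 without either GSK3326595 replicate, and that with GSK3326595 was 1 without GSK3326595 replicate 1. Between the inhibitors 15 genes were lower and 1 higher with palbociclib, beside 18.2% and 16.6% of all genes tested. The lower one with the smallest p was CASP8AP2, which is needed for S phase histone transcription, at a log2 fold change of -0.92 ± 0.10. The higher one was the importin gene IPO4, at 0.37 ± 0.08, which was not called without palbociclib replicate 2 (edgeR adjusted p = 0.0568), while 2 genes were higher without GSK3326595 replicate 2.

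Among 24 genes that act on or through H2AX at DNA breaks, 12 fell and 0 rose with palbociclib. Of all genes tested 20.2% fell and 19.3% rose. The median log2 fold change of the 24 was -0.33. With GSK3326595 6 fell and 1 rose, beside 10.2% and 8.58% of all genes tested, and the median was -0.08. At an unadjusted p under 0.05 edgeR had 1 gene higher with palbociclib, and DESeq2 and limma-voom called 0. BRCA1, a tumor suppressor that acts in break repair, had 50.9 ± 1.24 CPM with palbociclib and 68.2 ± 0.522 CPM with GSK3326595, against 126 ± 5.45 CPM with DMSO (SD, n = 2 each). Its log2 fold change was -1.30 ± 0.08 with palbociclib (edgeR adjusted p = 3.53e-07) and -0.88 ± 0.08 with GSK3326595 (edgeR adjusted p = 4.47e-05). The gene that rose with GSK3326595 was RAD50, of the break-binding MRE11 complex, at 0.48 ± 0.09 (edgeR adjusted p = 0.00342). The count of genes that fell with GSK3326595 was 1 without DMSO replicate 2, 3 genes rose without GSK3326595 replicate 1, and 1 rose with palbociclib without either GSK3326595 replicate. Between the inhibitors 11 genes were lower and 2 higher with palbociclib, beside 18.2% and 16.6% of all genes tested. MDC1, which binds phosphorylated H2AX, was lower at -1.18 ± 0.09, and the kinase gene ATR was higher at 0.37 ± 0.08. In that comparison 7 genes were lower without palbociclib replicate 1 and 6 without palbociclib replicate 2, and 1 was higher without palbociclib replicate 1.

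Of 10 other variant genes in the deposited data, 4 passed the filter, and 3 of them fell with each inhibitor and 0 rose. EdgeR at an unadjusted p under 0.05, DESeq2 and limma-voom also gave 0 higher. The shares of all genes tested were 20.2% lower and 19.3% higher with palbociclib, and 10.2% lower and 8.58% higher with GSK3326595. CENPA, the H3 variant of centromeres, had 8.48 ± 0.788 CPM with palbociclib and 14.3 ± 1.11 CPM with GSK3326595, against 29.7 ± 3.92 CPM with DMSO (SD, n = 2 each). Its log2 fold change was -1.81 ± 0.14 with palbociclib (edgeR adjusted p = 1.59e-06) and -1.05 ± 0.13 with GSK3326595 (edgeR adjusted p = 0.000301). The other genes that fell, H2BC26 and H2AC25, also count among the S phase genes. H2BC26 was at -2.65 ± 0.17 with palbociclib and H2AC25 at -1.05 ± 0.12 with GSK3326595. Between the inhibitors 3 of the 4 were lower with palbociclib, beside 18.2% of all genes tested. H2BC26 had the smallest p, at -1.30 ± 0.17. H3-5, an H3.3-like gene, averaged under 1 CPM in each group and was not called.

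**Figure D4:**
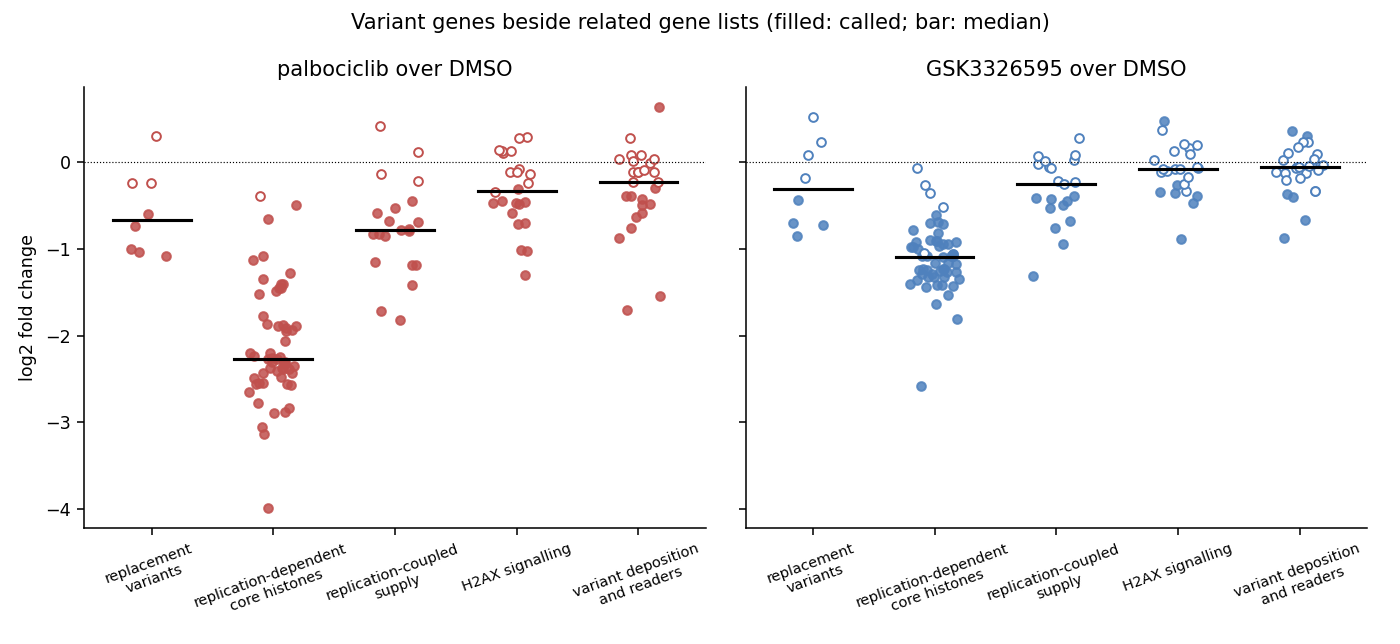
Log2 fold change (y axis) of single genes (points) in the 8 replacement variants and in 4 related gene lists (x axis), for palbociclib over DMSO at the left and GSK3326595 over DMSO at the right; filled points were called at an edgeR adjusted p under 0.05 and bars are medians. The variants, with medians of -0.67 and -0.31, lie above the replication-dependent histones, with medians of -2.27 and -1.09.

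Each member was last set beside the rest of the transcriptome by the distance between profiles of log2 CPM, relative to the DMSO mean, over the 6 libraries among 9843 tested genes of at least 10 CPM. The nearest genes were SHCBP1 (distance 0.157) and RFC3 (0.158) for H2AZ1, TEX30 (0.137) and SGO2 (0.156) for H2AZ2, and RAD54B (0.176) and CENPE (0.192) for H2AX. For H3-3B they were F2RL1 (0.0926) and HNRNPR (0.0980), and for H3-3A ELOVL5 (0.0490) and NR3C1 (0.0493). MACROH2A1 was nearest to TARS1 (0.0773) and PPIL4 (0.0775), MACROH2A2 to SF3A2 (0.176) and SGF29 (0.181), and H2AJ to RAMAC (0.239) and UQCC4 (0.252). All these profiles share the same libraries and scaling, and the distances are a description with no test.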

How the data were processed

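RNA of 6 A375 libraries was measured, in 3 groups of 2. Per the labels' protocols, total RNA came from RNeasy columns, was depleted of ribosomal RNA and went into TruSeq RNA v2 libraries. The authors deposited raw counts per gene for each library, not normalized. Build hg38, HISAT2, featureCounts 1.6.2, cutadapt 1.7, CASAVA 1.8.2 and limma are named in the submitters' processing notes. The annotation, the strand setting and how multiply aligned reads were handled were not given in the sources used here.

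From the 28395 gene IDs, 27741 were matched to RefSeq symbols. Counts were tested with edgeR 4.0.16 in R 4.3.3: filterByExpr with a minimum count of 10 left 16381 genes, TMM scaled the libraries, and 1 quasi-likelihood fit covered all 6 of them with a mean per group and 3 residual degrees of freedom. The F test is two-sided, p-values were adjusted by Benjamini-Hochberg over all genes tested, and a gene was called under 0.05. The SE is approximate: the size of the log2 fold change over the root of F. CPM values are TMM-scaled; intervals and errors of counts cover these libraries only. Levels per kb use 1 GENCODE v29 transcript per gene. The edgeR script was tested on simulated counts with 200 changed genes. At an adjusted p under 0.05 it recovered 84.4% of the changed genes tested. Of its calls 8.70% were false, a larger share than that threshold aims at. Alternatives were DESeq2 1.42.0, limma-voom (limma 3.58.1), DESeq2 size factors, library totals, 2 other filters, only the groups compared, H3P6 counts added, a replicate block and leaving out each library. Ratios were tested by exact permutation over libraries in scipy 1.17.1.

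The 8 members, the related gene lists and the tests were chosen with earlier results of these data known. The text names all members and, from each list and comparison, the called gene with the smallest p in each direction, with BRD2 and CENPA always; RUVBL1, HIRA, DAXX, ATRX, KRT5, H3-5 and H2AC8 were added after their values or sequences were seen. Promoter sequences are RefSeq's on GRCh38 and transcripts GENCODE's.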

Additional observations from a re-analysis of the deposited data

How the results depend on the processing

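Across 15 alternative settings, H2AZ1, H2AZ2 and H2AX kept their calls in both comparisons with DMSO, and H3-3B with palbociclib. Leaving out each library in turn, the members called lower numbered 4 to 7 with palbociclib, 3 to 4 with GSK3326595 and 0 to 5 for palbociclib against GSK3326595. Over all genes, the counts ran from 1964 to 3692 lower and 2043 to 3651 higher with palbociclib, from 1072 to 1652 lower and 637 to 1578 higher with GSK3326595, and from 1633 to 2688 lower and 1679 to 2854 higher for palbociclib against GSK3326595. Fewer libraries enter these fits, and a group left with 1 library is assumed to vary like the others. Directions that turned were those of values near 0. MACROH2A1 with GSK3326595 ran from -0.032 to 0.17 on the log2 scale, with -0.02 without GSK3326595 replicate 2. H3-3A, palbociclib over GSK3326595, ran from -0.11 to 0.032. The H2AZ1 to H2AZ2 log2 ratio against DMSO ran from -0.016 to 0.083 with palbociclib, with -0.003 without palbociclib replicate 2, and from -0.063 to 0.036 with GSK3326595, with 0.017 without GSK3326595 replicate 2. The replicate numbers are shared by the groups, but no label says that libraries of equal number belong together. Differences between replicates correlated across genes at 0.179 for palbociclib and DMSO, 0.341 for GSK3326595 and DMSO and 0.140 for palbociclib and GSK3326595, with 2 numbers per comparison. With the replicate block, GSK3326595 gave 2943 genes lower and 2826 higher and 1 member higher, H2AJ (edgeR adjusted p = 0.0285); the cause was not tested. The block also called lower H3-3A with palbociclib (edgeR adjusted p = 0.00318) and with GSK3326595 (0.0282), MACROH2A1 with palbociclib (0.00247), and H2AZ1 (0.00103) and H2AX (0.00589) for palbociclib against GSK3326595, and it lost no call of a member. H2AJ and MACROH2A2, with 78 to 174 counts per library, had SEs of 0.18 to 0.21 on the log2 scale.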
